A study of Mus musculus with 6 samples.

Results

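Fibroblast growth factor (FGF) signalling through the ERK kinases was followed here by 10 genes, namely the ligand gene Fgf4, the receptor genes Fgfr1 and Fgfr2, the Sprouty genes Spry1, Spry2 and Spry4, the phosphatase genes Dusp4 and Dusp6, and the PEA3 factor genes Etv4 and Etv5. They were chosen by name, for their place in the pathway and with earlier results of these data known, out of 42450 genes in the count table. All 10 passed the filter on low counts that left 18905 genes to test. Total RNA had been sequenced from 3 WT and 3 Srrm2+/- cultures of E14tg2a.4, a male mouse embryonic stem cell (ESC) line. The Srrm2+/- cells are a single gene-trap line in which a cassette truncates 1 allele of Srrm2, a gene for a nuclear speckle splicing factor, and WT cells are the parental line. Both genotypes grew on gelatin with leukaemia inhibitory factor (LIF) and were moved to serum-free ESGRO medium with LIF before RNA extraction, and the labels and methods name neither an added FGF nor an inhibitor of MEK or GSK3. The 3 cultures of a genotype came from separately frozen batches at different passages, and WT passages were higher than those of Srrm2+/-, so passage and genotype cannot be told apart.

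ESCs make and secrete FGF4, which binds FGF receptors with the help of heparan sulphate and switches on the RAS-RAF-MEK-ERK kinase chain in the same and in neighbouring cells. In these cells ERK activity is known to favour exit from naive pluripotency and, in the blastocyst, the choice of primitive endoderm over epiblast. ERK also raises transcription of its own restraints, so that Sprouty genes, Dusp6 and the PEA3 factors are widely used as transcript readouts of the pathway. RNA levels alone do not measure the phosphorylation of ERK.

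In Srrm2+/- cells the ligand and the feedback genes moved in opposite directions. Fgf4 fell, while Fgfr1, all 3 Sprouty genes, Dusp4, Dusp6 and Etv4 rose. Fgfr2 and Etv5 did not pass the test. Thus 7 of 10 genes were called higher and 1 was called lower by edgeR's quasi-likelihood test at a Benjamini-Hochberg adjusted p under 0.05, where 13.6% of all tested genes were called higher, 11.7% lower and 25.3% in either direction. The groups did not overlap for 8 of the 10 genes, against 41.4% of all tested genes. The median log2 fold change (log2FC, Srrm2+/- over WT) was 0.54 over the 10 genes and -0.0025 over all genes tested.

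**Figure D1:**
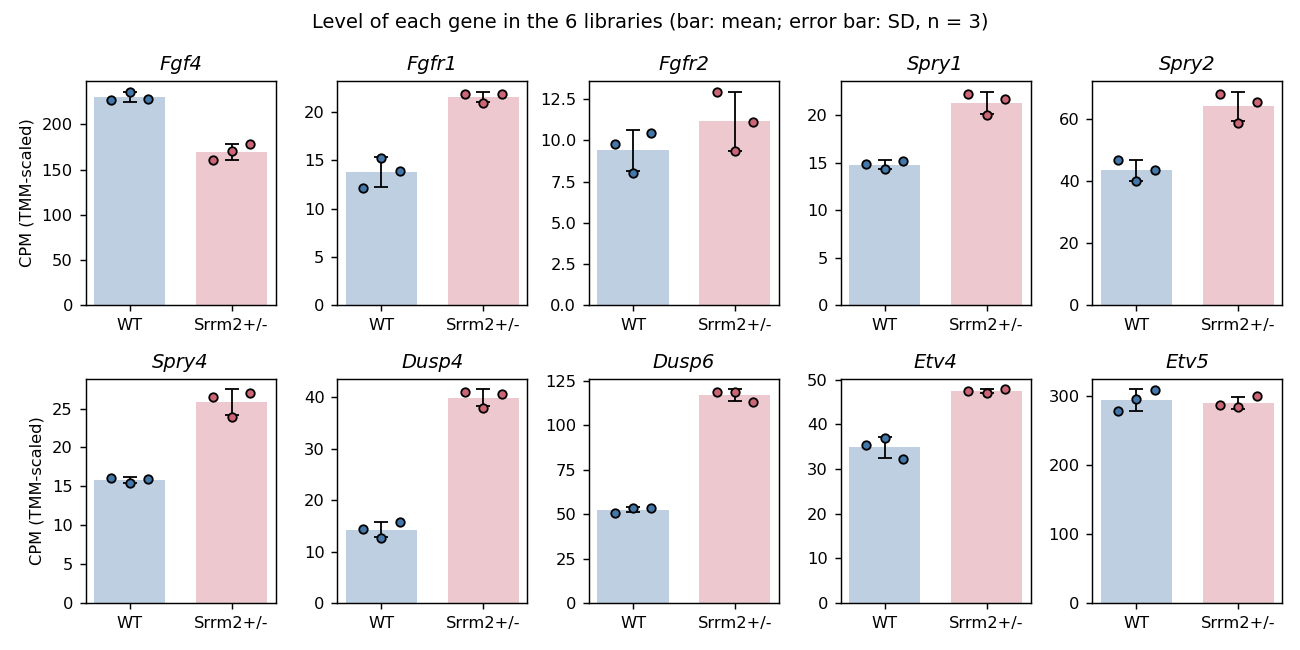
Level of each gene in CPM, counts scaled to a common library total with TMM factors (vertical axis from 0), in the 3 WT (blue) and 3 Srrm2+/- (red) libraries, with bars at the mean and error bars of 1 SD (n = 3). Fgf4 was lower in every Srrm2+/- library, Fgfr2 and Etv5 overlapped between genotypes, and the other 7 genes were higher in every Srrm2+/- library.

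Srrm2 itself checked the labels. It measured 91.2, 98.3 and 97.7 CPM in the WT libraries and 62.3, 56.2 and 59.6 CPM in the Srrm2+/- libraries. Its log2FC was -0.69 (SE 0.05, edgeR adjusted p = 2.38e-05), which is 62% of the WT level. Library totals lay between 54151532 and 58499961 estimated counts in WT and between 61023103 and 69933465 in Srrm2+/-, so depth was higher throughout in Srrm2+/-. The share of small nucleolar RNA was 0.491% to 0.674% in WT and 0.316% to 0.38% in Srrm2+/-, and its part in the results was not tested, although all calls on the 10 genes stayed as they were with short RNA, rRNA and mitochondrial genes removed. The 10 genes held between 462 and 19862 counts in any library, and the coefficient of variation within a group was 0.756% to 16%.

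Markers of the cell type were read from fixed lists, and the counts called stand beside 25.3% of all tested genes. The summed level of 12 pluripotency markers was 5717 to 5912 CPM in WT and 5144 to 5261 CPM in Srrm2+/-, and 6 of the 12 were called lower and 2 higher. Pou5f1, which encodes OCT4, was not called (log2FC -0.04, SE 0.04), whereas Nanog fell by 0.72 (SE 0.04, edgeR adjusted p = 8.6e-06). Primitive endoderm markers summed to 51.8 to 64.7 CPM in WT and 52.1 to 59.7 CPM in Srrm2+/-. Of the 10 tested 2 were called higher and 1 lower, a share of 30% that lies near that of all genes. The defining genes Gata6, Sox17 and Pdgfra were near 0 throughout, with Gata6 between 0.0541 and 0.303 CPM, Sox17 between 0.0541 and 0.131 CPM and Pdgfra between 0.178 and 0.485 CPM. The 3 called markers, named after their values were seen, moved both ways. The basement membrane gene Col4a1 rose by 3.40 (SE 0.25), from 0.919 to 2.17 CPM in WT to 15.3 to 20.4 CPM in Srrm2+/-, and the endocytic adaptor gene Dab2 rose by 1.34 (SE 0.30). The laminin gene Lama1 fell by 0.64 (SE 0.08), from 47.9 to 59.2 CPM to 32.9 to 36.9 CPM. The other 4 lists each had a higher summed level in every Srrm2+/- library than in any WT library. Trophoblast markers summed to 69.4 to 73.7 CPM in WT and 270.4 to 300.4 CPM in Srrm2+/-, with 3 of 7 tested genes higher and 1 lower. Cdx2 had no count in WT and at most 0.276 CPM in Srrm2+/-, and Eomes rose by 0.79 (SE 0.24, edgeR adjusted p = 0.039), a call that was lost in 5 of 6 fits with 1 library left out, all but that without WT replicate 2 (adjusted p = 0.0532 to 0.139), and with DESeq2 (0.088) or a filter of 1 count (0.0506). The keratin genes Krt8 and Krt18 measured 8.22 to 9.68 CPM and 8.51 to 10.3 CPM in WT and made up most of the sum in Srrm2+/-, at 117 to 132 CPM and 120.4 to 134.8 CPM. Tfap2c, which made up most of the sum in WT at 50.1 to 51 CPM, was at 29.6 to 32.9 CPM in Srrm2+/- and fell by 0.71 (SE 0.05, edgeR adjusted p = 2.11e-05). These 3 genes were singled out after their values were seen. Fibroblast markers summed to 3.53 to 3.75 CPM in WT and 7.33 to 11.2 CPM in Srrm2+/-, with 5 of 7 tested genes higher and Col1a1 at 0.484 to 0.523 CPM and 0.972 to 1.23 CPM. Primitive streak and mesoderm markers summed to 2.54 to 3.91 CPM and 6.21 to 6.82 CPM, with 3 of 6 tested genes higher. Neural markers summed to 89.1 to 92 CPM and 131.4 to 138.3 CPM, with 1 of 5 tested genes higher and 2 lower, and Neurog2 and Olig2 had no count in WT and 1 count each over the 3 Srrm2+/- libraries. The part of these markers in the results on FGF-ERK genes was not tested. In bulk RNA, fewer cells of a type and less RNA per cell cannot be told apart.

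Fgf4 (ENSMUSG00000050917, chr7:144847367-144865243, plus strand, GRCm38) encodes the FGF that ESCs secrete. It measured 226.8, 236.2 and 228.2 CPM in WT libraries 1 to 3 and 160.6, 171.1 and 178.2 CPM in Srrm2+/- libraries 1 to 3. Every Srrm2+/- library lay below every WT library. The log2FC was -0.44 (SE 0.05, 95% confidence interval -0.54 to -0.33, edgeR adjusted p = 0.0002), or 73.8% of the WT level. The fall held in every alternative with the same call rule and ranged from 0.47 to 0.40 in size. No 31-base word of its annotated transcripts occurred in another annotated gene.

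The receptor genes encode tyrosine kinases that dimerise on binding FGF. Fgfr1 (ENSMUSG00000031565, chr8:25513654-25575718, plus strand), the main FGF receptor of epiblast cells, measured 12.2, 15.3 and 13.9 CPM in WT and 21.9, 21 and 21.9 CPM in Srrm2+/-. The groups did not overlap, and Fgfr1 rose by 0.65 on the log2 scale (SE 0.08, 95% confidence interval 0.47 to 0.83, edgeR adjusted p = 0.000496). Its exons overlap the antisense gene Gm16159 by 164 bases, and because the strand setting of the counting was not given, reads there cannot be assigned with certainty. Gm16159 itself held between 13 and 33 counts in a library, against at least 676 for Fgfr1. Of the 31-base words of Fgfr1, 381 (3.75%) also occur in 793 other genes, and 136 of these words are in Gm16159. Fgfr2 (ENSMUSG00000030849, chr7:130162451-133123350, minus strand), the receptor gene associated with primitive endoderm, measured 9.75, 7.99 and 10.4 CPM in WT and 12.9, 9.38 and 11.1 CPM in Srrm2+/-. These values overlapped between the groups. Its log2FC was 0.25 (SE 0.13, edgeR adjusted p = 0.222), with a 95% confidence interval of -0.06 to 0.56 that holds both no change and a rise of up to that size. The annotated span of Fgfr2 includes a read-through transcript that shares 314 exon bases with Ctbp2 on the same strand.

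Within a library, the number of Fgfr2 counts was 80%, 52.3% and 75.2% of the number of Fgfr1 counts in WT and 59.1%, 44.8% and 50.9% in Srrm2+/-. The log2 ratio of Fgfr2 to Fgfr1 was -0.56 ± 0.33 (SD, n = 3) in WT and -0.96 ± 0.20 in Srrm2+/-. The difference of -0.41 was not called (exact two-sided permutation test, p = 0.2, adjusted over 5 ratios p = 0.25). A comparison of 3 with 3 libraries cannot give a p below 0.1. A rise in Fgfr1 without a call in Fgfr2 therefore does not show that the receptors responded differently.

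Sprouty proteins restrain signalling from receptor tyrosine kinases to RAS and ERK, and their genes are induced by the pathway. All 3 rose, by 0.53 to 0.71 on the log2 scale. Spry1 (ENSMUSG00000037211, chr3:37639947-37644598, plus strand) measured 14.9, 14.3 and 15.2 CPM in WT and 22.2, 20 and 21.7 CPM in Srrm2+/-, a log2FC of 0.53 (SE 0.06, edgeR adjusted p = 0.000305). Spry2 (ENSMUSG00000022114, chr14:105891947-105896819, minus strand) measured 47, 40.1 and 43.6 CPM in WT and 68.2, 59 and 65.5 CPM in Srrm2+/-. Its log2FC was 0.56 (SE 0.07, edgeR adjusted p = 0.000572). Spry4 (ENSMUSG00000024427, chr18:38586247-38601415, minus strand) measured 16.1, 15.4 and 15.9 CPM in WT and 26.5, 23.9 and 27 CPM in Srrm2+/-, with a log2FC of 0.71 (SE 0.06, edgeR adjusted p = 5.73e-05). In none of the 3 did a WT library reach the lowest Srrm2+/- library. Of the 31-base words of Spry1, 23.1% also occur in Gm42922 on the opposite strand, whose exons overlap it by 710 bases and which was not analysed here. Spry2 shared 0.878% of its words with other genes and Spry4 shared none.

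Spry1 counts were 31.7% to 35.7% of Spry2 counts in WT and 32.6% to 33.9% in Srrm2+/-. The difference in their log2 ratio was -0.036, with SDs of 0.09 in WT and 0.03 in Srrm2+/- (n = 3; exact two-sided permutation test, p = 0.5, adjusted p = 0.5). Spry4 counts were 34.2% to 38.4% of Spry2 counts in WT and 38.9% to 41.2% in Srrm2+/-, so that every Srrm2+/- library was higher. That difference was 0.14 with SDs of 0.08 and 0.04, at the smallest p the design allows (exact two-sided permutation test, p = 0.1, adjusted p = 0.167). Of the 45 pairs that the 10 genes form, Spry1 and Spry2 had the most similar profiles, with a root mean square difference of 0.0579 in mean-centred log2 CPM over the 6 libraries.

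The phosphatases showed the largest rises among the 10 genes. DUSP6 dephosphorylates ERK in the cytoplasm and DUSP4 acts on ERK in the nucleus. Dusp4 (ENSMUSG00000031530, chr8:34807297-34819894, plus strand) measured 14.4, 12.7 and 15.7 CPM in WT and 41, 38 and 40.7 CPM in Srrm2+/-. It was 2.80-fold higher, with a log2FC of 1.49 (SE 0.08, 95% confidence interval 1.31 to 1.66, edgeR adjusted p = 3.56e-06). Dusp6 (ENSMUSG00000019960, chr10:99263231-99267489, plus strand) measured 50.8, 53.4 and 53.3 CPM in WT and 119.1, 118.8 and 113.3 CPM in Srrm2+/-. It was 2.23-fold higher, with a log2FC of 1.16 (SE 0.04, 95% confidence interval 1.06 to 1.25, edgeR adjusted p = 4.55e-07). These were the only 2 of the 10 genes to pass the test at a change of at least 1 in either direction on the log2 scale, a size reached by 1153 called genes in all. Neither gene shared a 31-base word with another gene.

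Dusp4 counts were 28.4%, 23.8% and 29.4% of Dusp6 counts in WT and 34.4%, 32% and 35.9% in Srrm2+/-. All 3 Srrm2+/- ratios were above all 3 WT ratios. The log2 ratio differed by 0.33, with SDs of 0.16 in WT and 0.08 in Srrm2+/- (n = 3; exact two-sided permutation test, p = 0.1, adjusted p = 0.167).

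ETV4 and ETV5 are related ETS transcription factors of the PEA3 group whose genes respond to FGF in many tissues. Etv4 (ENSMUSG00000017724, chr11:101769742-101785371, minus strand) measured 35.3, 37 and 32.2 CPM in WT and 47.5, 47.1 and 47.8 CPM in Srrm2+/-. The groups did not overlap, and Etv4 rose by 0.45 on the log2 scale (SE 0.06, edgeR adjusted p = 0.000504). Etv5 (ENSMUSG00000013089, chr16:22381309-22439719, minus strand), at 278, 296.1 and 308.7 CPM in WT and 287, 284.3 and 300.3 CPM in Srrm2+/-, overlapped between the groups. Its log2FC was -0.018 (SE 0.05, edgeR adjusted p = 0.825), and its 95% confidence interval of -0.13 to 0.09 lies below the interval of every gene that was called higher. Its sign turned to 0.019 without WT replicate 3. Of its 31-base words 30.3% also occur in Gm4798, which was not analysed here, so the Etv5 count is less certain than that of Etv4, which shared none.

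Etv4 counts were 12.7%, 12.5% and 10.4% of Etv5 counts in WT and 16.5%, 16.6% and 15.9% in Srrm2+/-. The log2 ratio of Etv4 to Etv5 differed by 0.47, with SDs of 0.16 in WT and 0.03 in Srrm2+/-. No WT library reached the lowest Srrm2+/- library (n = 3; exact two-sided permutation test, p = 0.1, adjusted p = 0.167).

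**Figure D2:**
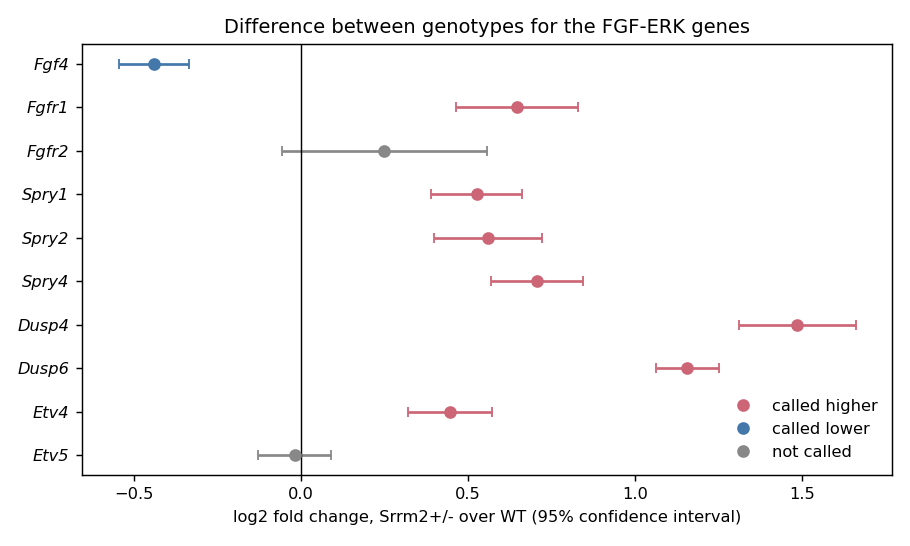
Log2 fold change of Srrm2+/- over WT (horizontal axis) for each gene, with 95% confidence intervals from the edgeR fit to 3 libraries per genotype. The intervals of Fgfr2 and Etv5 include 0, that of Fgf4 lies below 0 and those of the other 7 genes lie above 0, with Dusp4 and Dusp6 beyond 1.

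**Figure D3:**
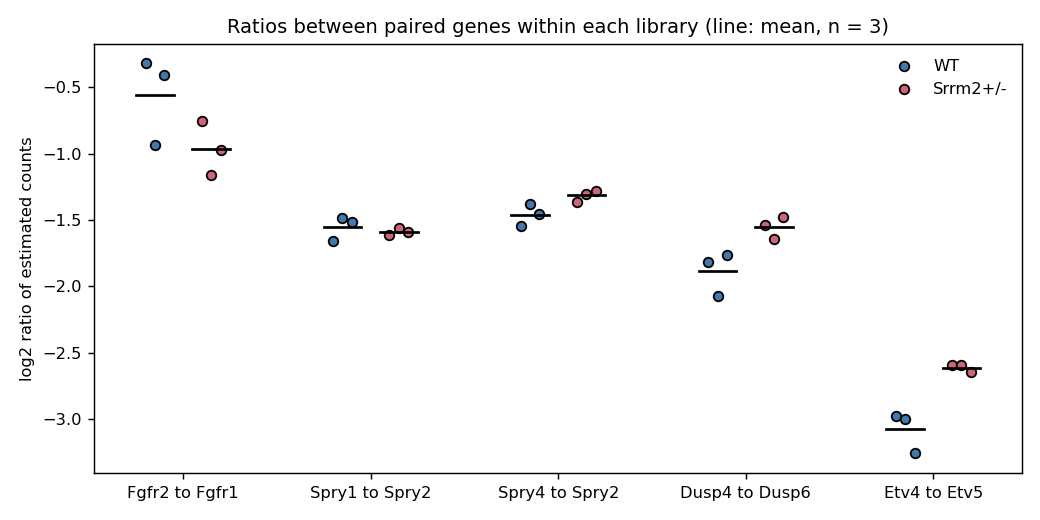
Log2 ratio of estimated counts between paired genes within each library (vertical axis), for WT (blue) and Srrm2+/- (red), with lines at the mean of 3 libraries. The genotypes separate for Spry4 to Spry2, Dusp4 to Dusp6 and Etv4 to Etv5 and overlap for Fgfr2 to Fgfr1 and Spry1 to Spry2.

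Sequences before the transcription start were read from the RefSeq promoter table (GRCm38.p6), which matched 6 of the 10 genes, namely Fgf4, Fgfr2, Spry1, Spry2, Dusp6 and Etv5, the last with 2 starts. Fgfr1, Spry4, Dusp4 and Etv4 are named only. The 250 bases before the start are shown for the ligand that fell, for the phosphatase Dusp6 that rose and for both starts of Etv5, which was not called. RefSeq starts can differ from the ends of the GENCODE gene spans given above. The Fgf4 window and the Etv5 window that begins at 22438369 lie inside those spans, and the other Etv5 window overlaps its span. Capitals mark matches to the GC box (GGGCGG) or to TGAATG, the core of the binding site of the ERK-regulated repressor Capicua, on either strand.
Fgf4, chr7:144861136-144861385, plus strand: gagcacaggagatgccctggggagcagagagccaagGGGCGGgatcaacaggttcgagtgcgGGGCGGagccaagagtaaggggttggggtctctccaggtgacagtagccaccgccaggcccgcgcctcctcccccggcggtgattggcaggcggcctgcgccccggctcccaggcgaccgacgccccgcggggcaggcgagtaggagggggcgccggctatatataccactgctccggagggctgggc
Dusp6, chr10:99262981-99263230, plus strand: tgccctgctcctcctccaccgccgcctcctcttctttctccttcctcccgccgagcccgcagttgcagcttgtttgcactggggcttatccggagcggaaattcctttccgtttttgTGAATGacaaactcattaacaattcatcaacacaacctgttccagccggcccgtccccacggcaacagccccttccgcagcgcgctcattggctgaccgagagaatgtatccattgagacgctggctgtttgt
Etv5, chr16:22438369-22438618, minus strand: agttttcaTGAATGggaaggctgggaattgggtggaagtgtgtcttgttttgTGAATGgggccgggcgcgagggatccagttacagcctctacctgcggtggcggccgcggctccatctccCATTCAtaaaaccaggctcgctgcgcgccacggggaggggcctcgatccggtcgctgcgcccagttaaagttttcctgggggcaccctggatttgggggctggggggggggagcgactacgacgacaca
Etv5, chr16:22439571-22439820, minus strand: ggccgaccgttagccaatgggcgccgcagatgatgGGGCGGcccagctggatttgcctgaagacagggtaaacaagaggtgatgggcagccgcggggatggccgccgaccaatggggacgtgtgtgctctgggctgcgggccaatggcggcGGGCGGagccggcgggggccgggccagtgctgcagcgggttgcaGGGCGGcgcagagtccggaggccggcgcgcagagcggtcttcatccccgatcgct

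The 7 windows were searched on both strands. TGAATG, which was chosen after the sequences were seen, occurred in 2 of the 7, against 10.9% of 32841 promoter windows of the same length. It stood 133 bases before the start of Dusp6, which rose, and 3 times in 1 window of Etv5, which was not called. The longer Capicua sites TGAATGAA and TGAATGGA, which contain that core, were in 0 of 7 windows (1.08% and 1.01% of all windows). Only these 2 forms of the longer site were searched, so 0 of 7 does not show that the windows lack other forms. The same runs with C in place of the G after the opening T were not counted over all windows. The Dusp6 window holds tccattga and the Spry2 window holds ttcattga, which are such runs when read on the other strand. The GC box was in 3 of 7 windows, those of Fgf4, Spry1 and the other Etv5 start, against 32.7% of all. The ETS site in the form CCGGAA (12% of all windows) and the AP-1 site TGANTCA (6.75%) had no match in the 7 windows. The CRE site TGACGTCA (1.55%) and the CArG box (1.47%) had none either. Other forms of these sites, among them other ETS sequences, were not searched and may be present. A match is a run of letters, and sites outside these windows were not searched.

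Levels of different genes were compared per kilobase of exon. In WT, Fgf4 at 72.1 ± 1.58 (SD, n = 3) and Etv5 at 71.7 ± 3.75 CPM per kilobase led, and their libraries overlapped. They were followed by Spry2 (20.9 ± 1.66), Dusp6 (16.8 ± 0.479) and Etv4 (11.2 ± 0.783), each clear of the next. Dusp4 (5.20 ± 0.543) and Spry1 (5.10 ± 0.159) overlapped and changed places when the longest transcript set the length. Spry4 (3.32 ± 0.075), Fgfr1 (1.39 ± 0.157) and Fgfr2 (0.909 ± 0.121) came last, and with the length of the longest transcript Fgfr1 stood at 2.73 and Fgfr2 at 2.12 in the same order. In Srrm2+/-, every neighbour in the order was clear of the next. Etv5 (70.8 ± 2.09) stood above Fgf4 (53.2 ± 2.77), and Dusp6 (37.4 ± 1.05) stood above Spry2 (30.8 ± 2.26). Etv4 (15.3 ± 0.116), Dusp4 (14.6 ± 0.6), Spry1 (7.34 ± 0.400), Spry4 (5.42 ± 0.349), Fgfr1 (2.18 ± 0.0545) and Fgfr2 (1.08 ± 0.173) followed. The receptor genes were thus the least abundant in both genotypes.

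The genes with the profile most like that of Fgf4 were sought among 11961 tested genes whose log2 CPM averaged 1 or more. Sgk1, which encodes a serine-threonine kinase, came first with a root mean square difference of 0.0243 in mean-centred log2 CPM over the 6 libraries and a log2FC of -0.42. Cdc37l1 (0.026 and -0.40), Zmat4 (0.0317 and -0.43), Nemp1 (0.0335 and -0.50) and Zfp819 (0.0352 and -0.47) followed. All 5 were called lower (edgeR adjusted p = 0.000108 to 0.000378). This follows from how they were picked, by likeness over the same libraries to a gene that was itself called lower.

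Around these 10 genes, 109 further pathway genes on fixed lists were counted, and 94 could be tested. Of these, 42 were called higher and 10 lower (55.3%, against 25.3% of all genes), with a median log2FC of 0.16. The lists were chosen with earlier results of these data known, and no set test was run. The counts called in each list below stand beside the same 25.3%.

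**Figure D4:**
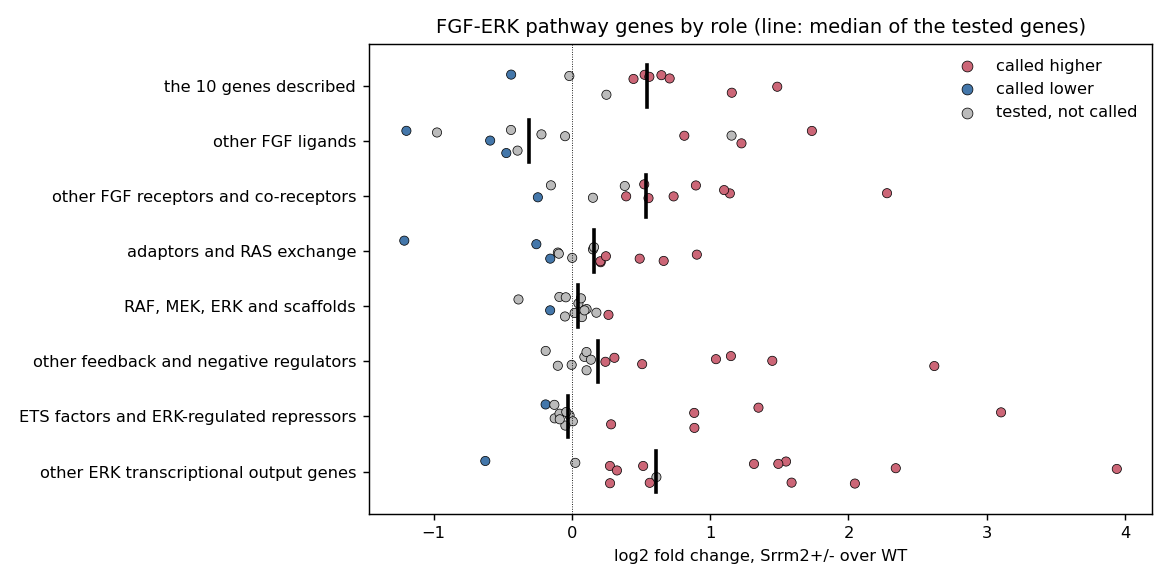
Log2 fold change of Srrm2+/- over WT (horizontal axis) for each tested gene of the FGF-ERK pathway by role (rows), with vertical lines at the median of each row and colours for the edgeR call. Genes for RAF, MEK, ERK and scaffolds range from -0.39 to 0.26, whereas the output genes reach 3.94.

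Other FGF genes, listed together as ligand genes, moved both ways. Of 21 listed, 12 were tested, 3 were called higher (Fgf5, Fgf13 and Fgf14) and 3 lower (Fgf1, Fgf10 and Fgf17), and the median was -0.31. Fgf5, Fgf10 and Fgf14 stayed below 1 CPM in every library. Fgf17 measured 9.9 to 10.8 CPM in WT and 6.89 to 7.94 CPM in Srrm2+/- (log2FC -0.47, SE 0.08). Fgf1 fell by 0.59 (SE 0.13), from 4.67 to 5.67 CPM in WT to 2.97 to 3.8 CPM in Srrm2+/-. Fgf13 and Fgf14 encode members of the family that act inside the cell, so the list is not of secreted ligands alone. Fgf13 rose by 0.81 (SE 0.22, edgeR adjusted p = 0.0274). Its call was lost without WT replicate 2, WT replicate 3, Srrm2+/- replicate 1 or Srrm2+/- replicate 3 (adjusted p = 0.069 to 0.0914). Without Srrm2+/- replicate 1, 3 ligand genes in place of 6 were called and the median was -0.16. It was -0.19 without Srrm2+/- replicate 2.

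Receptor and co-receptor genes mostly rose, with 8 of 12 tested genes called higher, 1 lower and a median of 0.54. Syndecans and glypicans are the heparan sulphate proteoglycans that hold FGF at its receptor. Gpc1 measured 12.6 to 14.9 CPM in WT and 23.6 to 27 CPM in Srrm2+/- (log2FC 0.90, SE 0.08). Gpc4 rose by 1.10 (SE 0.11), Sdc3 by 1.14 (SE 0.24) and Gpc6 by 0.74 (SE 0.15). Gpc3 measured 73.2 to 79.7 CPM in WT and 61.8 to 66.6 CPM in Srrm2+/-, and fell by 0.25 on the log2 scale (SE 0.05).

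Among adaptors and RAS genes, 6 of 14 were called higher and 3 lower, with a median of 0.16. Mras, which encodes a RAS-related GTPase, fell by 1.21 (SE 0.06, edgeR adjusted p = 3.4e-06), from 28.4 to 32.1 CPM in WT to 12.9 to 13.5 CPM in Srrm2+/-. Rras rose by 0.90 (SE 0.12), Rras2 by 0.66 (SE 0.05) and the exchange factor gene Sos2 by 0.49 (SE 0.10). Hras was called higher at 0.25 (SE 0.06), and Nras at -0.16 (SE 0.04) and the adaptor gene Frs3 at -0.26 (SE 0.08) were called lower. Each of these last calls was lost in 4 or 5 of the 6 fits with 1 library left out, at adjusted p = 0.0511 to 0.0621 for Hras, 0.0849 to 0.102 for Nras and 0.0546 to 0.151 for Frs3. Frs3 kept its call only without WT replicate 2, and lost it with limma voom (0.0528) and with a filter of 1 count (0.0651). Hras kept it only without WT replicate 3 or Srrm2+/- replicate 2, and Nras only without WT replicate 2 or Srrm2+/- replicate 1.

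Of 13 genes for RAF, MEK, ERK and their scaffolds, 1 was called higher and 1 lower (15.4%, against 25.3% of all genes, a difference that was not tested), and the median was 0.047, or 0.073 without Srrm2+/- replicate 2. Map2k1, which encodes MEK1 and was named after its values were seen, measured 74.9 to 83.2 CPM in WT and 77.3 to 80.9 CPM in Srrm2+/-. The scaffold gene Iqgap1 rose by 0.26 (SE 0.06). Araf fell by 0.16 (SE 0.04, edgeR adjusted p = 0.0233), and this call held only without WT replicate 2 among the 6 fits with 1 library left out (adjusted p = 0.0527 to 0.0878 in the other fits).

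Further feedback genes rose or were not called. Of 14 tested, 7 were called higher and 0 lower, with a median of 0.19. Dusp5, which encodes a nuclear ERK phosphatase, measured 1.66 to 2.41 CPM in WT and 11.9 to 13.4 CPM in Srrm2+/- (log2FC 2.62, SE 0.13, edgeR adjusted p = 3.49e-06). Dusp1 rose by 1.15 (SE 0.13), Errfi1, an inhibitor of the epidermal growth factor receptor, by 1.04 (SE 0.05) and Spred3, a Sprouty-related gene, by 0.51 (SE 0.10).

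ETS factors and ERK-regulated repressors had a median of -0.029, with 5 of 14 called higher and 1 lower. Ets1 rose by 3.10 (SE 0.16, edgeR adjusted p = 3.15e-06), from 0.793 to 1.2 CPM in WT to 8.83 to 9.48 CPM in Srrm2+/-. Elk3 rose by 0.89 (SE 0.13) and Ets2 by 0.88 (SE 0.12). Etv1, the remaining PEA3 gene, was called higher at 0.28 (SE 0.09, edgeR adjusted p = 0.0403), and lost the call without WT replicate 2, WT replicate 3, Srrm2+/- replicate 2 or Srrm2+/- replicate 3 (adjusted p = 0.103 to 0.14) and with limma voom (0.0562). Gabpa fell by 0.19 (SE 0.04). The median turned to 0.021 without WT replicate 3 and to 0.0033 without Srrm2+/- replicate 2.

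Other transcripts induced by ERK were the list with the highest share of calls, with 12 of 15 called higher, 1 lower and a median of 0.61. Many of them also answer to other signals, such as serum response factor. Egr1, an immediate early zinc finger factor, measured 0.675 to 1.12 CPM in WT and 4.06 to 4.29 CPM in Srrm2+/- (log2FC 2.34, SE 0.20). Plaur, the urokinase receptor gene, rose by 2.05 (SE 0.08) and Ier5 by 1.55 (SE 0.16). Fos rose by 1.59 (SE 0.39, edgeR adjusted p = 0.0168) and lost its call without WT replicate 3 (adjusted p = 0.0531) or Srrm2+/- replicate 1 (adjusted p = 0.0577). Epha4, an ephrin receptor gene, fell by 0.63 (SE 0.07), from 160.3 to 178.2 CPM in WT to 100.6 to 118 CPM in Srrm2+/-. The list median was 0.95 without WT replicate 2, 0.94 without WT replicate 3 and 1.00 without Srrm2+/- replicate 2, fits in which the set of tested genes also changed.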

How the data were processed

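Total RNA of 3 WT and 3 Srrm2+/- cultures had been sequenced in stranded, paired-end libraries. Gene-level estimated counts without normalization were deposited, which the authors made with kallisto 0.46.1 on the GENCODE M24 transcriptome (GRCm38). How strand was set is not given in the sources used here. Reads that fit several transcripts are divided by kallisto, so overlapping or near-identical genes can exchange counts.

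Estimated counts were rounded. GENCODE M21, of the same build, gave positions, exon lengths and 31-base words (42156 of 42450 identifiers matched), and coordinates count from 1. Genes past filterByExpr (minimum count 10, minimum total 15) were tested with edgeR 4.0.16 in R 4.3.3 (TMM, glmQLFit and glmQLFTest, two-sided, genotype as the sole term, all 6 libraries). P-values were adjusted over all 18905 tested genes and a gene was called under 0.05. TMM-scaled library sizes gave the CPM. Ratios used log2(count + 0.5), and profiles used log2 CPM with a prior count of 2. Promoter windows came from RefSeq.

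Replicates are cultures from separate frozen batches, so p-values measure the spread between them within 1 line per genotype. Named genes were the 10 genes, Srrm2, up to 4 rises and 4 falls per list (the called genes that changed most, where log2 CPM averaged 0 or more), the 5 genes most like Fgf4 and 8 markers. The genes and lists were chosen with earlier results of these data known. Alternatives were RLE and upper quartile scaling, DESeq2 1.42.0, limma voom 3.58.1, other filters, stricter call rules, the replicate number as a block and each library left out. The scripts were tested on simulated counts.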

Additional observations from a re-analysis of the deposited data

How the results depend on the processing

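All 8 calls on the 10 genes kept their direction and their call under RLE and upper quartile scaling, DESeq2, limma voom, both other filters, an adjusted p under 0.01, exclusion of mitochondrial, rRNA and short RNA genes, the replicate block and each library left out, with 7 higher and 1 lower each time. Fgfr2 (0.13 to 0.36) and Etv5 (-0.057 to 0.019) were not called in any of them, Etv5 turning positive without WT replicate 3. Pdgfra, which was not called, ranged from -0.56 to 0.0093 with 1 library left out and turned positive without WT replicate 3, and Map2k1, also not called, ranged from -0.0074 to 0.068 and turned negative without it. With a minimum change of 1 on the log2 scale added, 2 of the 10 genes were called higher and 0 lower, as were 813 and 340 of all genes, and 3 FGF ligand, 3 receptor, 1 adaptor, 0 kinase, 4 feedback, 2 ETS and 7 output genes were called, since smaller changes are left out by construction. At an adjusted p under 0.01, 1574 of all genes were called higher and 1205 lower, with 1 FGF ligand and 0 kinase genes. When 1 CPM was required throughout a group, 3 FGF ligand genes were called and the median of the output genes was 0.95, as fewer genes were tested. With 1 library left out, FGF ligand genes called ranged from 3 to 5 and kinase genes from 1 to 2. Libraries with the same replicate number did not deviate together (correlations of -0.034 to -0.028), so the numbers did not pair the samples, and the replicate block left 1 kinase gene called, as Araf lost its call (adjusted p = 0.0564). Frs3 (0.0723), Etv1 (0.0902) and Eomes (0.0809) also lost theirs under the block. All 5 ratios kept their sign without the prior count and with each library left out, and all 5 genes most like Fgf4 were the same under RLE scaling. The planned scaling to spike-ins was not run, as the table analysed lists none. Levels below 1 CPM rest on few counts, and their changes are the least certain.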

Other observations

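The rule for named genes left out further pathway genes because of their low level or their rank. Some of these also differed by more than 1 on the log2 scale. Fgf10 fell by 1.20 (SE 0.30, edgeR adjusted p = 0.0184), from 0.485 to 0.829 CPM in WT to 0.261 to 0.34 CPM in Srrm2+/-. Fgf14, Dusp2, Etv2 and Ier3 were called higher. Given below are 4 others that rose, chosen after their values were seen. Phlda1, an ERK-induced gene, measured 0.0721 to 0.131 CPM in WT and 1.58 to 1.79 CPM in Srrm2+/- (log2FC 3.94, SE 0.26, edgeR adjusted p = 1.38e-05). Myc, a transcription factor gene of proliferating cells, measured 2.86 to 3.85 CPM in WT and 9.16 to 10.5 CPM in Srrm2+/- (1.49, SE 0.13, edgeR adjusted p = 5.42e-05). Fgf5, a ligand gene that marks the primed epiblast, measured 0.277 to 0.523 CPM in WT and 0.711 to 0.94 CPM in Srrm2+/- (1.23, SE 0.30, edgeR adjusted p = 0.0175), but lost its call without WT replicate 1, WT replicate 2, Srrm2+/- replicate 1 or Srrm2+/- replicate 3 (adjusted p = 0.0568 to 0.0666). Fgfr3 measured 0.0187 to 0.324 CPM in WT and 0.795 to 0.924 CPM in Srrm2+/- (2.28, SE 0.55, edgeR adjusted p = 0.0154), and lost its call without WT replicate 2 (adjusted p = 0.0502) or Srrm2+/- replicate 3 (adjusted p = 0.0539).

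Nes, which encodes an intermediate filament protein of neural progenitors and was also chosen after its values were seen, measured 11.2 to 14.3 CPM in WT and 78.3 to 87.9 CPM in Srrm2+/- (log2FC 2.67, SE 0.09). Tubb3, a tubulin gene of neurons, measured 47.4 to 51.1 CPM in WT and 27 to 30.6 CPM in Srrm2+/- and fell by 0.76 (SE 0.06), so that neural markers did not move together.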
